A study of Homo sapiens with 9 samples.

Results

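Of the 5291 long intergenic non-coding RNA (lincRNA) loci on the array, 2114 carried probes for both genomic strands and are described here; the other 3177 were probed on a single strand. A locus was kept when its start and end, which the array design gives in the probe's gene name, occurred with the suffix F and with the suffix R. The 2114 loci held 4664 probes, 2326 with the suffix F and 2338 with the suffix R, of the 42405 non-control probes on each array. All 2325 F probes with a position lay on the plus strand and all 2279 R probes with a position on the minus strand of hg19, the build named in the file headers. NT2, the source of the RNA, is a human line of embryonal carcinoma origin that acquires neuronal features in retinoic acid. Every culture received 10 µM retinoic acid for 4 days. Of the 9 one-colour Agilent arrays, 3 measured control cultures without organophosphate, 3 cultures with 1 µM paraoxon, an inhibitor of acetylcholinesterase, and 3 cultures with 5 µM mipafox, which also inhibits neuropathy target esterase irreversibly. The letters A, B and C name the arrays of a treatment. They are biological replicates in the sample labels and technical replicates in the study's methods, so the p-values below measure the spread between arrays, which may be technical.

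RNA polymerase can copy either strand of a stretch of DNA. A lincRNA transcribed to the right is read by the F probe of its locus, and one transcribed to the left by the R probe, so a pair of such probes asks which strand of a non-coding locus gives rise to RNA. Long non-coding RNAs are transcribed outside protein-coding frames, often start near other promoters in the opposite direction, and include scaffolds of nuclear bodies, imprinted transcripts and hosts of small nucleolar RNAs. Many lincRNA loci were first marked by chromatin signatures of transcribed regions, which carry no strand, and the array then holds a probe for each direction. The loci differ in how well they are supported as genes, and the deposited files name them by coordinates alone.

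Most loci, 1800 of 2114, had 1 probe on each strand, and 4 had 5 on each, the highest number. Their median length was 13822.5 bp, from 106 to 1038476 bp. As 629 of them overlapped another, the 2114 loci covered 1742 separate stretches and are not all independent. In 1560 of the 1759 loci with 1 positioned probe per strand (88.7%) the F probe lay to the right of the R probe, so that each probe tended to sit toward the end that a transcript of its strand would have. The nearest F and R probes of a locus were a median of 3126.5 bp apart. In 464 loci an F and an R probe overlapped, as 533 pairs, and in all 533 the overlapping bases were exact reverse complements, which checks the strand suffixes against the probe sequences. The pairs below share bases, and over these both probes read the same base pairs of DNA in opposite directions. Capitals mark the shared bases and each sequence runs 5′ to 3′ in the sense of its own strand on hg19. They are shown because the results below return to them: H19, a locus near MYEOV on chromosome 11 and a locus near JUN on chromosome 1.
H19 F probe of chr11:2016961-2017020: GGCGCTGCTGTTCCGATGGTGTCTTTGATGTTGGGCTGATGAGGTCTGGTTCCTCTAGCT
H19 R probe of chr11:2016961-2017020: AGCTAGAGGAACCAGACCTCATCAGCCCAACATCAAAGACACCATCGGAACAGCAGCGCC
MYEOV-side F probe of chr11:69158649-69158708: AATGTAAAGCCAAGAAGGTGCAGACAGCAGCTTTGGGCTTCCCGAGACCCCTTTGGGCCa
MYEOV-side R probe of chr11:69158648-69158707: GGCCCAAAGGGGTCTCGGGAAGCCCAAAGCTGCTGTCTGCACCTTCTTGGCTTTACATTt
JUN-side F probe of chr1:59281254-59281313: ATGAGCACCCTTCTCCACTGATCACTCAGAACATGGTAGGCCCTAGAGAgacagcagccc
JUN-side R probe of chr1:59281243-59281302: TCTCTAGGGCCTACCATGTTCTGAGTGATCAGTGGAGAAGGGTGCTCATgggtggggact

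A probe was taken as detected on an array where a share of at least 0.5 of its unflagged spots was well above background, and a strand where any of its probes was. Both strands were detected on all 9 arrays in 551 loci (26.1%), a count that depends on the flag and was 1102 when the scanner's positive-and-significant flag was used instead. One strand was detected on all 9 arrays and the other on none in 402 loci, of which 213 had the F strand and 189 the R strand. Neither strand was detected on any array in 246 loci (11.6%). The remaining loci had at least one strand on some of the arrays: 279 had F on all 9 and R on 1 to 8, 235 had R on all 9 and F on 1 to 8, 152 had both on 1 to 8, 133 had R alone on 1 to 8 and 116 had F alone on 1 to 8. The F strand was thus detected on all 9 arrays in 1043 loci and the R strand in 975. Counted by probe, 47.8% of the 4664 probes were detected on all 9 arrays and 28.2% on none. The same shares were 43.4% and 34.5% of the 3599 probes of one-strand lincRNA loci and 66.0% and 20.7% of the other 34142 probes on the array.

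On a single array both strands were detected in 689 to 1005 of the 2114 loci. Control A, B and C had 892, 1005 and 834 such loci, paraoxon A, B and C had 898, 837 and 747, and mipafox A, B and C had 689, 991 and 748. The mean was 910.3 ± 87.0 (SD, n = 3) for control, 827 ± 76.0 for paraoxon and 809 ± 160 for mipafox, and the treatments overlapped. Neither difference from control passed an exact two-sided permutation test (p = 0.5 for paraoxon and p = 0.4 for mipafox), in which 3 arrays against 3 cannot go below 0.1. The arrays lay on 2 slides: the control arrays and mipafox A on the first, the paraoxon arrays and the other two mipafox arrays on the second. Within the first slide mipafox A had 689 loci against 834 to 1005 in control, and within the second mipafox B and C had 991 and 748 against 747 to 898 with paraoxon. Over all probes, 65.7% to 73.6% were well above background per array, with paraoxon C and mipafox A lowest.

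Detection followed the base composition of the probe on both strands. Of F probes with under 35% G and C, 10.7% were detected on all 9 arrays, against 74.3% of those with 55% or more. The R probes went from 9.71% to 67.5% over the same range. Probes of one-strand lincRNA loci went from 22.6% to 70.8%, and the other array probes from 54.9% to 71.5%, so that the gap between lincRNA probes and the rest was widest for probes rich in A and T. In the 246 loci with no detected strand the median G and C content was 38.3% for both strands, and in the 551 loci with both strands it was 48.3% for F and 45% for R. Where 1 strand was detected on all 9 arrays and the other on none, the 2 probes did not differ in this way: the medians were 44.2% for F and 43.3% for R where F was the detected strand, and 45% for both where R was. The part of base composition in the counts of detected strands was not tested.

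**Figure D1:**
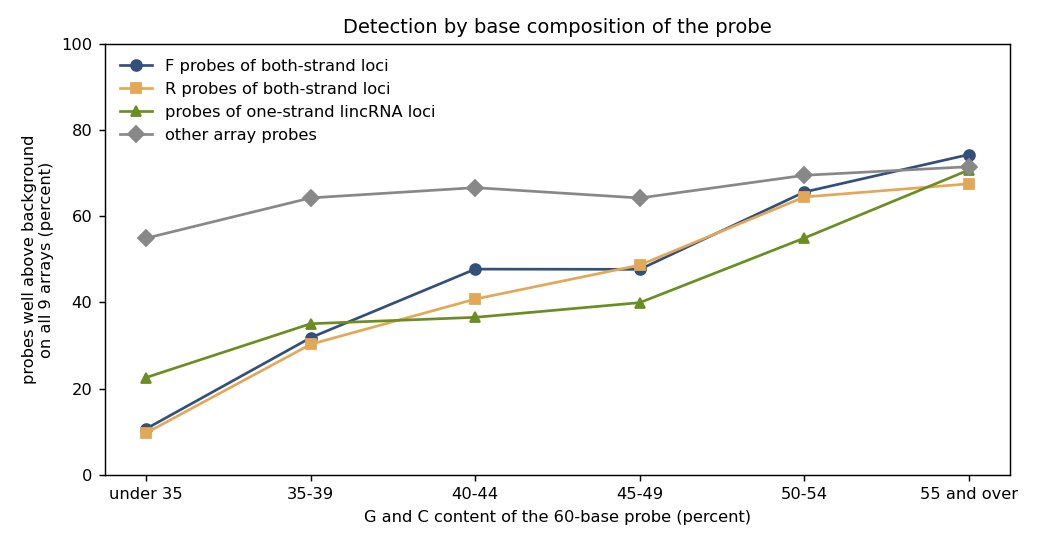
Percent of probes well above background on all 9 arrays (vertical axis) by G and C content of the 60-base probe (horizontal axis, 6 classes), for F and R probes of the both-strand loci, for probes of one-strand lincRNA loci and for all other probes. The F and R lines go from 10.7% and 9.71% to 74.3% and 67.5%, while the other probes start at 54.9%.

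The state of a locus varied little with its length. Both strands were detected on all 9 arrays in 24.7% of loci of up to 8476 bp and in 25.9% of those of 30676 bp and over, and 1 strand on all 9 with the other on none in 18.8% and 19.7%. It varied more with how the probes lay. Where an F and an R probe overlapped, both strands were detected on all 9 arrays in 16.2% of 464 loci and neither on any in 28.2%. Where they lay apart the shares were 29.2% and 6.95% of 1598 loci. In the 314 loci with more than 1 probe on a strand, where any of several probes could count, both strands were found on all 9 arrays in 44.3% against 22.9% of the 1800 with 1 probe each. Among 422 pairs of probes that shared at least 30 complementary bases, 48 had both probes on all 9 arrays (11.4%), 171 had neither on any (40.5%), 31 had F alone and 28 had R alone on all 9 with the other on none (14.0% together), and 144 fell between. In the pairs with F or R alone, the probe of 1 direction was above background on every array and the other on none. The probes of such a pair shared at least 30 of their 60 bases and could differ in the rest.

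The 4 loci described for a bright strand whose partner was detected on no array lay on chromosomes 6, 2, 17 and 2. At chr6:127681282-127704857 both F probes were detected on every array, the brighter with normalised log2 signals of 6.91, 6.82 and 6.81 on control arrays A, B and C, 6.78, 6.79 and 6.94 with paraoxon, and 7.04, 6.85 and 6.42 with mipafox. The normalised log2 signal is the log2 processed signal minus that of the array's 75th percentile, so 0 is the 75th percentile of the array, and signals of different probes cannot be set against each other as levels. The R probe of this locus, 307 bp away, was not well above background on any array. At chr2:178145929-178214236 the F probe stood between 6.03 and 6.80 on the 9 arrays and the R probe was again not above background. This interval holds an array probe of LOC100130691. At chr17:49425-59094 the F probe ranged from 3.64 on mipafox C to 6.09 on control A. At chr2:81861889-82101789 the R probe was the detected one, between 3.88 and 5.10, with the F probe 133 bp away. None of these 4 bright strands passed the test against control: the adjusted p was 0.955 or higher for every probe of theirs.

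The 5 loci named for 2 bright strands behaved unlike one another. At chr5:72707719-72723794, where the nearest named gene on the array is FOXD1, a forkhead transcription factor gene, the F and R probes lay 193 bp apart and moved together over the arrays. The F strand gave 6.30, 5.80 and 5.29 on control arrays A, B and C, 6.13, 5.14 and 5.93 with paraoxon, and 6.35, 5.71 and 3.96 with mipafox. The R strand gave 5.32 to 6.25 in control, 5.16 to 6.05 with paraoxon and 4.06 to 6.38 with mipafox. Mipafox C was lowest and mipafox A highest on both, and Pearson's r over the 9 arrays was 0.99 between the strands, also after the median of all both-strand probes on each array was subtracted. The F minus R difference stayed between -0.09 and 0.22. Both probes are rich in G and C, and they are printed here because they are the opposite-strand pair that moved most alike among the named loci.
FOXD1-side F probe of chr5:72715742-72715801: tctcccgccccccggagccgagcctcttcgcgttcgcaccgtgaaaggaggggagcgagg
FOXD1-side R probe of chr5:72715549-72715608: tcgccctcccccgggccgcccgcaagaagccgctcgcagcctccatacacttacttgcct
At chr2:107293518-107358418, on the side of ST6GAL2, a sialyltransferase gene, the strands were less alike. Its brighter F probe gave 6.08, 5.96 and 5.38 on control arrays A, B and C, 5.82, 4.73 and 6.90 with paraoxon, and 6.56, 6.23 and 4.22 with mipafox, and the second F probe followed it with r = 0.98, or 0.96 after the array median was subtracted. The R probe gave 5.91, 5.68 and 5.57 on control arrays A, B and C, 5.92, 6.02 and 6.34 with paraoxon, and 5.78, 6.06 and 5.90 with mipafox, and its r with the 2 F probes was 0.29 and 0.40 as measured and -0.68 and -0.60 after the subtraction. The other named pairs, at chr1:91997737-92078987 near CDC7, chr22:25408700-25464025 and chr2:20722919-20803669, had r from -0.61 to 0.31 between opposite strands on the same scale. These correlations are over 9 arrays, the points share the arrays, their slides and treatments, and they are given as a description.

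Opposite strands of a locus resembled each other slightly more than strands of different loci before the array level was removed, and not more after it. The profiles of 2 probes over the 9 arrays were compared for probes detected on all 9. The median r was 0.48 for the 678 pairs on opposite strands of one locus, 0.43 for F and R probes of different loci and 0.62 for the 210 pairs on the same strand of one locus. The median over the both-strand probes itself varied between arrays. After it was subtracted from each array, the median r was -0.07 for opposite strands (quartiles -0.40 and 0.34), -0.004 for different loci (-0.36 and 0.35) and 0.35 for the same strand (-0.05 and 0.78). An r above 0.5 was found in 15.3% of opposite-strand pairs, 16.0% of pairs from different loci and 41.4% of same-strand pairs. Same-strand probes lay closer, at a median of 181 bp against 5060 bp. For the 35 same-strand pairs more than 1000 bp apart the median r was 0.21, against -0.03 for the 466 opposite-strand pairs at such distances. In the 117 loci that held pairs of both kinds the opposite-strand median was -0.05. The 72 opposite-strand pairs with overlapping probes, which read the same DNA over their shared bases, had a median of -0.19. Pairs within a locus share probes and loci overlap, so these are descriptions over pairs and carry no test.

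In 391 loci the array also held a probe from outside the lincRNA set inside the interval, which gives a strand that was named independently of the F and R suffixes. Such probes are called gene probes here, although not all of them carry a gene name. For 281 combinations of such a gene probe, detected on all 9 arrays, with its locus, the lincRNA strand in the same direction was detected on all 9 arrays in 68.3% and the opposite strand in 53.7%. For the 122 combinations in which the gene probe was detected on no array the shares were 52.5% and 49.2%. The profile of the gene probe over the arrays had a median r of 0.37 with the lincRNA probes of its own direction (230 pairs) and 0.27 with those of the opposite direction (160 pairs). After array medians were subtracted these were 0.19 and 0.03. Loci enter more than once when they hold several gene probes.

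Long non-coding RNA genes with names of their own show the strands by example. Of the 30 genes on the list used here, 9 had a gene probe inside 17 of the both-strand loci. The strand of the gene was detected on all 9 arrays in 15 of these loci and on none in 1, and the opposite strand on all 9 in 10 and on none in 4. H19 is an imprinted RNA of fetal tissues, read from the minus strand. The R probe of chr11:2016408-2017024 gave 7.44, 7.00 and 7.01 on control arrays A, B and C, 6.76, 6.77 and 6.39 with paraoxon, and 7.09, 6.75 and 6.80 with mipafox. The F probe, complementary to it over all 60 bases printed above, gave 1.17, 0.00 and -0.59 on control arrays A, B and C, 0.19, -0.43 and 1.84 with paraoxon, and 1.44, 1.13 and -0.14 with mipafox, and was detected on all 9 arrays as well. The R probe stayed between 6.39 and 7.44 and the F probe between -0.59 and 1.84, the treatments overlapped on F, and the 2 probes had r = -0.09 over the 9 arrays. On R every paraoxon array lay below every control array, with a log2 change of -0.51 ± 0.18 (SE, limma, adjusted p = 0.265) that was not called. The H19 gene probe had a log2 change of -0.16 ± 0.16 (SE, limma, adjusted p = 0.760) with paraoxon. A second F probe of the interval, 549 bp away, followed the first with r = 0.80.

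MALAT1, an abundant RNA of nuclear speckles read from the plus strand, lies in a pair of overlapping loci. In chr11:65265824-65275174 the F probes were detected on all 9 arrays and the R probe on none. In chr11:65266349-65275177 the R probe was detected on all 9 too, between -3.86 and -1.74. HOTAIR, a transcript of the HOXC cluster read from the minus strand, was the opposite case. Its gene probe was detected on no array, while in both of its loci an R probe was detected on all 9 and no F probe on any. In the shorter locus, chr12:54356229-54357908, the detected R probe stood between -6.63 and -5.30. A second R probe there, which overlaps the gene probe, was like it detected on no array. The R probe of the longer locus gave -2.23, -2.38 and -2.43 on control arrays A, B and C, -2.07, -1.67 and -1.68 with paraoxon, and -2.68, -1.81 and -1.41 with mipafox. MEG3, an imprinted plus-strand RNA, had 2 gene probes on all 9 arrays, yet in chr14:101292196-101327355 neither lincRNA strand was detected on any array and in the overlapping chr14:101294997-101335522 both were on all 9. Both strands were also detected on all 9 arrays at GAS5 and SNHG5, hosts of small nucleolar RNAs read from the minus strand, and at MIAT. At TUG1, read from the plus strand, the F probes of all 3 loci were detected on all 9 arrays and the R strands on 7, 6 and 9.

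NEAT1, the scaffold RNA of paraspeckles read from the plus strand, lies in a pair of overlapping loci whose probes differed from each other. The R probe of chr11:65190199-65214674 gave -1.71, -1.98 and -2.51 on control arrays A, B and C, -3.05, -3.93 and -2.86 with paraoxon, and -2.25, -3.12 and -3.59 with mipafox, so every paraoxon array lay below every control array. The F probe gave -5.67, -6.64 and -6.47 on control arrays A, B and C, -5.70, -6.68 and -5.54 with paraoxon, and -5.78, -6.08 and -6.28 with mipafox, with the groups overlapping. The change in F minus R was 1.50 ± 0.29 (SE, adjusted p = 0.0737) with paraoxon and 1.14 ± 0.29 (SE, adjusted p = 0.316) with mipafox in limma, neither of which passed. The F probe was not well above background on paraoxon B, so the size with paraoxon rests partly on a signal at background. In the overlapping locus chr11:65190190-65214674 the values ran differently. Its F probe was higher on each paraoxon array (-4.21, -4.24 and -4.26) than on any control array (-4.70, -4.93 and -4.90), its R probe overlapped with a log2 change of 0.19 ± 0.58 (SE, adjusted p = 0.936), and the log2 change in F minus R was 0.42 ± 0.55 (SE, adjusted p = 0.751). The NEAT1 gene probe itself was at -1.47, -1.87 and -1.78 in control and -0.93, -1.27 and -0.63 with paraoxon, a log2 change of 0.76 ± 0.31 (SE, adjusted p = 0.326). Over the list, 20 probes of 17 genes were tested. None was called with either agent, and the median log2 change was 0.07 with paraoxon and 0.01 with mipafox. An unadjusted p under 0.05 in limma was found with paraoxon for 3 of the 20 probes and with mipafox for none. With paraoxon this is a share similar to that over the array, 3884 of all 29134 tested probes. These 3 were higher: KCNQ1OT1, an imprinted antisense RNA (0.93, adjusted p = 0.0967), MIAT (0.86, adjusted p = 0.339) and NEAT1.

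The treatment comparisons ask whether an agent shifted either strand of these loci. Tests covered probes that were detected on all 3 arrays of some treatment, which 2700 of the 4664 probes were, 1363 F and 1337 R, and called at an adjusted p under 0.05 with a log2 change above 1 or below -1. No probe was called in limma for paraoxon against control, where 0 of the 29134 probes tested on the array were called (0%), and the smallest adjusted p among the 2700 was 0.0690. At an unadjusted p under 0.05 there were 577 of the 2700 without regard to fold, beside 3884 of all 29134. Beyond the fold limit at an unadjusted p under 0.05, 111 probes were higher with paraoxon (4.11%, beside 1.45% of all tested probes) and 26 lower (0.963%, beside 0.738%). These counts moved with single arrays: 195 were higher and 10 lower without control A, 178 and 11 without paraoxon B, and 79 and 49 without control C. With normexp background correction they were 28 and 7. The strands were alike in the main counts: 56 F and 55 R probes were higher and 14 F and 12 R probes lower. No probe was called for mipafox against control, where again 0 of 29134 were called (0%) and the smallest adjusted p of the 2700 was 0.279. An unadjusted p under 0.05 was found for 257 of the 2700, beside 2027 of all 29134. With mipafox 16 probes were higher (0.593%, beside 0.268%) and 35 lower (1.30%, beside 0.577%) at the unadjusted limit, 12 F and 4 R higher and 23 F and 12 R lower. In these bulk cultures, fewer cells making a transcript and less transcript per cell cannot be told apart. Some probes entered the test only through a treatment in which they were bright. Among the 2228 detected on all 9 arrays, 85 were higher (3.82%) and 18 lower (0.808%) with paraoxon, and 12 higher (0.539%) and 22 lower (0.987%) with mipafox. The counts of 0 calls depended on the arrays: without mipafox A, which enters the paraoxon comparison through the shared variance and the filter, 49 of the probes of these loci were called for paraoxon, without mipafox B 12, and for mipafox 9 were called without mipafox A. Counts over all array probes under these restrictions are not given here. They therefore do not show whether such calls were particular to these loci.

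The median log2 change with paraoxon was 0.23 for F and 0.21 for R probes, 0.09 for probes of one-strand lincRNA loci and 0.01 for all 29134. With mipafox it was 0.09, 0.07, -0.01 and 0.001. These medians rest on arrays that overlapped. Set against the control mean, the median deviation of the 2700 probes was, in the order A, B and C, 0.32, -0.08 and -0.23 for the control arrays, 0.20, 0.05 and 0.43 with paraoxon and 0.15, 0.27 and -0.16 with mipafox, so that control A lay above paraoxon A and B. F and R probes followed the same order of arrays, with paraoxon C highest at 0.46 and 0.40 and control C lowest at -0.24 and -0.22. The median change with paraoxon was 0.36 without control A and 0.09 without control C. With mipafox it was -0.04 without control C, -0.01 without mipafox B and 0.22 without mipafox C, so its sign rested on single arrays, and the larger number of lower probes with mipafox turned to 53 higher and 18 lower without control A and to 33 higher and 13 lower without mipafox C. It also turned with array weights (209 higher, 36 lower, median 0.32) and without the filter on dim probes (68 higher, 45 lower). Paraoxon and control shared no slide, so a slide term can be fitted only through the mipafox arrays, which lay on both. With the slide as a block the median with paraoxon was 0.34 with 77.7% of the probes above 0, against 73.2%, and 72 probes were higher and 38 lower at the unadjusted limit.

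In 796 loci both strands were tested, and the difference between them was fitted as F minus R within each array, using the brightest tested probe of each strand. Such a difference removes whatever an array does to both probes alike. It shows unequal change and not which strand was unmoved. With paraoxon 0 of 796 loci were called at an adjusted p under 0.05 (0%) and the smallest adjusted p was 0.0737; 154 had an unadjusted p under 0.05 (19.3%), of which 81 had F gaining on R and 73 F losing. With mipafox 1 of 796 was called (0.126%), and 77 had an unadjusted p under 0.05 (9.67%), 39 and 38 in the 2 directions. Without mipafox A, 26 loci were called with paraoxon. These loci are the only features for which a strand difference exists, so no wider background can be given. The changes of the 2 strands showed little relation across loci: Pearson's r was -0.08 and Spearman's rho -0.03 with paraoxon, and 0.01 and 0.09 with mipafox, as a description over 796 loci that share 9 arrays. Both strands lay above 0 with paraoxon in 430 loci, both below in 48 and on opposite sides in 318, with the array shift above included. Both strands passed the unadjusted limit in 3 loci and 1 strand alone in 73. With mipafox these counts were 0 and 30. For probes on the same strand of a locus the changes had r = 0.09 with paraoxon and 0.15 with mipafox, over 210 pairs, against -0.07 and -0.01 over 678 opposite-strand pairs.

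**Figure D2:**
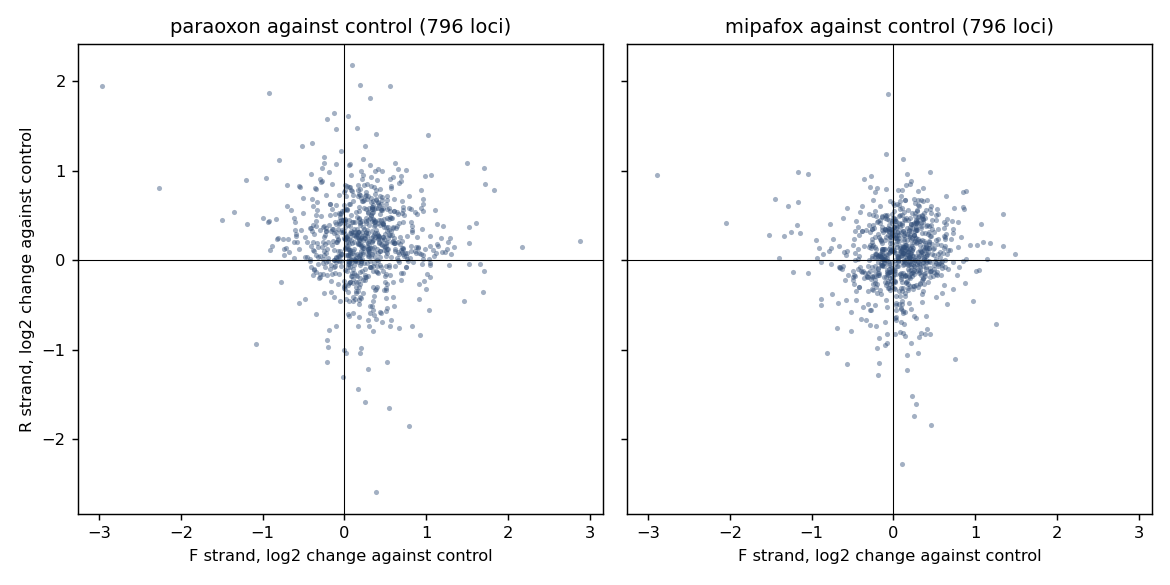
Log2 change against control of the F strand (horizontal axis) and the R strand (vertical axis) for the 796 loci with both strands tested, 1 point per locus, for paraoxon (left) and mipafox (right). The clouds show no slope (Pearson's r of -0.08 and 0.01), and with paraoxon 430 of the loci lie above 0 on both axes.

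Among the loci named by the smallest p of their strand difference, chr6:106935857-106946432 stood out in both comparisons, which share the control arrays. Its nearest named gene on the array is AIM1, 71331 bp away. The F strand gave -1.83, -2.23 and -2.72 on control arrays A, B and C, -2.98, -4.00 and -3.42 with paraoxon, and -2.32, -3.48 and -4.51 with mipafox. The R strand gave -4.88, -4.88 and -5.03 on control arrays A, B and C, -4.03, -4.37 and -3.68 with paraoxon, and -3.07, -4.38 and -4.39 with mipafox. Treated arrays were lower on F, apart from mipafox A at -2.32, and higher on R throughout, and F minus R went from 3.05, 2.64 and 2.31 in control to 1.05, 0.37 and 0.27 with paraoxon and 0.75, 0.90 and -0.11 with mipafox. The difference was -2.11 ± 0.36 (SE, adjusted p = 0.0737) with paraoxon and -2.16 ± 0.36 (SE, adjusted p = 0.0793) with mipafox, short of the threshold in limma. Mipafox A, on the slide of the controls, was -1.92 from the control mean. The probes lie 5834 bp apart and share no bases.
AIM1-side F probe of chr6:106944949-106945008: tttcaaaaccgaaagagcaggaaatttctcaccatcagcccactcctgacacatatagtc
AIM1-side R probe of chr6:106939115-106939174: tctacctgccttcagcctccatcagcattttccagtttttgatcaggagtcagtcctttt

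At chrX:16499154-16509904 the F strand overlapped between treatments and the R strand was lower on each paraoxon array (-5.95, -6.80 and -6.49) than on any control array (-4.19, -4.78 and -5.31), for a strand difference of 2.20 ± 0.39 (SE, adjusted p = 0.0737). The R probe was well above background on all 3 control arrays and on 1 of the 3 paraoxon arrays, so the size rests partly on signals at background. It was tested only through the control arrays, where it was brighter. At chr10:119266785-119280356, on the side of EMX2OS, the antisense transcript of the homeobox gene EMX2, F minus R was 0.82, 0.90 and 0.85 on control arrays A, B and C, 1.97, 2.16 and 1.84 with paraoxon, and 1.69, 1.62 and 1.91 with mipafox, with no overlap between control and either treatment. The difference was 1.14 ± 0.21 (SE, adjusted p = 0.0737) with paraoxon and 0.88 ± 0.21 (SE, adjusted p = 0.316) with mipafox. At chr1:59259962-59341212, whose nearest named gene is the transcription factor JUN, the F probe printed above gave -4.68, -4.44 and -4.22 in control and -3.33, -3.83 and -3.08 with paraoxon, and the R probe, complementary to it over the 49 bases in capitals, -5.78, -5.87 and -6.35 and -6.74, -6.94 and -5.99. The strand difference was 1.59 ± 0.30 (SE, adjusted p = 0.0737). The R probe was well above background on 1 of the 3 paraoxon arrays, so this value too rests partly on signals at background. This R probe too was tested only through the control arrays. The second F probe of this locus, 0.06 with paraoxon, did not move with the first.

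With mipafox, chr5:173084644-173297044 and chr6:44006347-44063172 completed the named set. At the first, 49901 bp from a probe of BOD1, a gene for chromosome biorientation, the F strand was at -4.95, -5.62 and -5.67 in control and -3.94, -4.12 and -4.77 with mipafox, and the R strand did not separate the groups. The strand difference was 1.13 ± 0.21 (SE, adjusted p = 0.105) with mipafox and 1.04 ± 0.21 (SE, adjusted p = 0.0737) with paraoxon. At the second, the R strand was at -4.51, -4.57 and -4.73 in control and -5.43, -5.44 and -6.03 with mipafox, a log2 change of -1.03 ± 0.19 (SE, adjusted p = 0.279), and the strand difference was 1.34 ± 0.25 (SE, adjusted p = 0.105). In both loci mipafox A, on the control slide, lay with mipafox B and C and outside the range of the controls.

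The locus called with mipafox is on chromosome 8, at chr8:128807043-128820943. The naming rule left out that chromosome, and the locus is named here after its values were seen because it is the one call. Its F minus R difference was 1.03, 1.61 and 1.23 on control arrays A, B and C, -0.08, -0.20 and 0.05 with paraoxon, and -0.42, -0.38 and -1.02 with mipafox, with all control arrays above all treated ones. The change was -1.90 ± 0.26 (SE, adjusted p = 0.0426) with mipafox and -1.36 ± 0.26 (SE, adjusted p = 0.0737) with paraoxon. The F probe in the test went from detected on all control arrays to detected on mipafox B alone, at -5.22, -4.45 and -5.27 in control and -6.86, -5.43 and -6.53 with mipafox. A second F probe of the locus had a log2 change of -0.29 ± 0.32 (SE, adjusted p = 0.938) and the R probe 0.61 ± 0.34 (SE, adjusted p = 0.818). On mipafox A neither probe of the tested pair was well above background, and on mipafox C the F probe was not, so the size of this difference rests partly on signals at background. The call was lost when the probes of a strand were averaged (-1.39 ± 0.30, adjusted p = 0.225), with the slide as a block (-1.71 ± 0.37, adjusted p = 0.283), without any one of the 9 arrays (adjusted p from 0.0610 to 0.308) and with normexp background correction or the authors' processed values, where it was -0.40 and -0.41. It was kept with quantile normalisation, array weights, a robust variance trend and outlier spots included.

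Single strands named for the smallest unadjusted p with paraoxon were all higher. At chr21:44456656-44468603, beside the homeobox gene PKNOX1, the F strand gave -6.62, -6.60 and -6.26 on control arrays A, B and C, -5.12, -5.13 and -5.36 with paraoxon, and -5.72, -5.68 and -5.40 with mipafox. Control arrays were lowest and the paraoxon arrays highest, and the log2 change was 1.29 ± 0.16 (SE, adjusted p = 0.069), while the R strand was at 0.25 ± 0.20 (SE). The F probe was not well above background on control A, so the size rests partly on a signal at background. It was tested through the treated arrays, where it was brighter. At chr1:204525202-204541352, beside MDM4, which encodes a negative regulator of p53, the F strand gave -3.95, -3.99 and -3.95 on control arrays A, B and C, -2.54, -2.77 and -2.78 with paraoxon, and -3.63, -3.09 and -3.50 with mipafox, a log2 change of 1.27 ± 0.16 (SE, adjusted p = 0.069). A second F probe of the same locus had a log2 change of -0.42 ± 0.43 (SE, adjusted p = 0.752), so the 2 probes of that strand disagreed in sign.

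At chr1:173968527-173991054 the F strand was higher with both agents. It gave -5.38, -5.63 and -5.38 on control arrays A, B and C, -3.70, -4.17 and -3.98 with paraoxon, and -4.39, -3.84 and -4.41 with mipafox, and the log2 change was 1.52 ± 0.20 (SE, adjusted p = 0.069) with paraoxon and 1.25 ± 0.20 (SE, adjusted p = 0.279) with mipafox. Mipafox A was 1.07 above the control mean on its own slide. The R strand of this locus spread from 0.96 on mipafox C to 4.71 on paraoxon A with no order by treatment. At chr11:70238327-70244052, beside PPFIA1, a gene for a scaffold protein of cell adhesions, the F strand was well above background on 1 of 3 control arrays and all treated ones, at -7.13, -6.90 and -7.31 in control, -5.93, -5.85 and -5.84 with paraoxon and -6.00, -6.44 and -6.35 with mipafox, a log2 change of 1.24 ± 0.16 (SE, adjusted p = 0.069) with paraoxon. This probe was tested through the treated arrays, where it was brighter, and the size rests on a control mean mostly at background.

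At chr11:69156869-69167569, 92400 bp from a probe of MYEOV, an R probe gave -3.11, -3.30 and -2.92 on control arrays A, B and C, -1.06, -0.79 and -1.26 with paraoxon, and -2.99, -2.46 and -1.64 with mipafox, a log2 change of 2.07 ± 0.30 (SE, adjusted p = 0.0733). Paraoxon arrays stood above all other arrays, mipafox C was between, and mipafox A on the control slide was 0.12 from the control mean. The F probe that shares 59 of its bases with this R probe, printed above, was well above background on 1 array, paraoxon B. The second R probe of the locus, further to the left, had a log2 change of 0.65 ± 0.23 (SE, adjusted p = 0.266).

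The strands named with mipafox beyond those above were lower. At chr3:114043485-114052885, next to ZBTB20, a zinc finger transcription factor gene, an R probe was well above background on 3 control and 2 paraoxon arrays and on no mipafox array, which makes its mean at least 2.52-fold lower with mipafox than in control (adjusted p = 0.340). This bound sets the control mean against the higher of the probe's own signal and the lowest signal well above background on each mipafox array. It allows for background alone and not for the spread between arrays. For this probe it equals the fitted log2 change of -1.33 ± 0.29 (SE), which was not called. A second R probe was above background on 3 control arrays, on no paraoxon array and on mipafox A, and by the same kind of bound its mean was at least 2.29-fold lower with paraoxon (adjusted p = 0.154). Both R probes were tested only through the control arrays, where they were brighter. The F strand was detected on no array. At chr6:53480866-53497141, near KLHL31, the F strand gave -4.08, -3.22 and -3.86 on control arrays A, B and C, -4.06, -4.43 and -4.73 with paraoxon, and -4.56, -5.22 and -5.07 with mipafox, a log2 change of -1.23 ± 0.27 (SE, adjusted p = 0.344). Mipafox A was -0.84 from the control mean and below every control array. At chr17:15398225-15403225 the F strand gave -2.56, -2.90 and -3.32 on control arrays A, B and C, -4.46, -5.10 and -4.84 with paraoxon, and -3.98, -4.93 and -6.16 with mipafox, and was lower than any control array with either agent. The log2 change was -2.10 ± 0.47 (SE, adjusted p = 0.344) with mipafox and -1.88 ± 0.47 (SE, adjusted p = 0.129) with paraoxon. Its R probe was detected on no array.

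Of the 4 loci with 5 probes on each strand, the most on the array, 3 were named and the fourth lies on a chromosome that the naming rule left out. The named loci, chr21:21322604-21759979, chr5:86405094-86425344 and chr6:73130154-73135679, had almost no signal. Of their 30 probes, 29 were not well above background on any array, and an F probe of the first was on 1, control B. Their probes had 21.7% to 45% G and C. As a check of the labelled cells, POU5F1, SOX2, LIN28A and DNMT3B of pluripotent cells were well above background on every array, as were NES, TUBB3 and MAP2 of neural cells COL1A1 of mesenchymal cells and the glial genes OLIG2 and S100B, the latter with 1 of its 2 probes. The glial gene GFAP and the mesoderm gene T were on none, AFP and SOX17 of endoderm on 1 each, GATA4 on 0 to 4 by probe and the synaptic gene SYP on 6.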

How the data were processed

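Per the labels and file headers, the deposited files hold Cy3 intensities of 60-base probes, extracted with Agilent Feature Extraction 10.5.1.1, whose processed signal the authors' scanner software had corrected for background. The authors also deposited log2 values of each array, used only as an alternative; the study's methods name Agi4x44PreProcess and limma. Control spots and outlier spots were left out, spots of a probe were averaged, and log2 processed signal was centred on each array's 75th percentile. Probes detected on all 3 arrays of some treatment, and with 2 or more values in each, were fitted with limma 3.58.1 in R 4.3.3 over all 9 arrays, with Benjamini-Hochberg adjustment over 29134 probes, or over 796 loci for F minus R. On simulated data with 200 features changed by 2 log2 units, 144 probes were recovered with 4 false calls, and 149 strand differences with 5. The simulated noise was independent between probes and arrays, without the shared array shifts of the real data. These figures therefore check the procedure and do not give its error rates here. Sequences and positions came from the file columns. Loci were named as all called, the 5 with the smallest p per agent, the 4 leading by strand difference per agent, 5 bright on both strands, 5 bright on one (1 of them is not reported here) and the 3 with the most probes, leaving out chromosomes 8 and Y; loci holding listed long non-coding RNA genes were added. Members and lists were chosen with earlier results of these data known. No columns of other samples were present. Figures were drawn with matplotlib 3.10.9. The number of arrays limits the precision. Alternatives covered background, scaling, filters, slide and replicate block, variance model, probe choice and leaving out each array.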

Additional observations from a re-analysis of the deposited data

Results flagged for a closer look

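The strand difference of chr8:128807043-128820943 was the one difference between groups that passed its own test: the change in F minus R with mipafox was -1.90 ± 0.26 (SE, limma, adjusted p = 0.0426 over 796 loci, 3 arrays per treatment), lower on 3 of 3 mipafox arrays than on any control array. Over the alternatives the adjusted p ranged from 0.0177 to 0.372, and it was above the threshold in 16 of them. The F probe was well above background on 1 of the 3 mipafox arrays and the R probe on 2, so the size rests partly on signals at background. The second F probe of the locus stood at -0.29 ± 0.32.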

How the results depend on the processing

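Of 383 alternative values for 19 named single changes and strand differences, 331 kept direction and side of the threshold, 36 newly passed it, 16 no longer passed, all of the chromosome 8 locus, and 0 reversed. The 0 probes called with paraoxon became 1 with normexp, 50 with the arrays of the 2 treatments alone, 176 with array weights and 0 to 49 on leaving out each array (49 without mipafox A, 12 without mipafox B). The 0 called with mipafox became 217 with array weights and 0 to 9 on leaving out each array (9 without mipafox A). These counts cover the probes of the both-strand loci only. Counts over all array probes in the same settings are not given here, so they do not show whether the calls were particular to these loci. The 0 strand differences called with paraoxon became 20 with the arrays of the 2 treatments, 48 with array weights and 0 to 26 on leaving out each array (26 without mipafox A). The 1 called with mipafox became 0 with normexp, the authors' values, no filter, detection on all 9 arrays, the slide as a block, the arrays of the 2 treatments, the mean over probes and on leaving out any array (0 to 0). Arrays of the same letter did not deviate together (correlations from -0.597 to 0.567), so the letters were not taken as pairs; with the replicate block 0 probes and 0 strand differences were called with either agent. The 551 loci with both strands on all 9 arrays became 1102 by the positive-and-significant flag, and 551 to 593 on leaving out each array. The causes were not tested.

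At an unadjusted p, the 137 probes past the fold limit with paraoxon became 35 with normexp, 38 with the authors' values, 213 with no filter and 208 with array weights. The 51 with mipafox became 16, 13, 113 and 245, 30 without control B and 135 without mipafox A. With the slide as a block 65.5% of those past the limit with paraoxon were higher, against 81.0%. Of the 4664 probes 28.2% were above background on no array, so no change could be measured for them, and 3 arrays per treatment on 2 slides limit the precision of the others.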
